A study of Mus musculus with 17 samples.

Results

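The peaks of an IRF1 antibody in resting mouse macrophages, here called sites, were set beside those found after 4 h of interferon gamma (IFNg). The sites are the peaks of 2 deposited ChIP-seq lists on chromosomes 1 to 19, X and Y, without those that overlap a peak of the input library. After this step 244 peaks were left for untreated cells, with 0 removed, and 4189 for IFNg, with 24 removed. These 4433 peaks belong to a series of 144384 peaks in 16 ChIP lists for 5 factors. The cells, labelled wild type (wt), were macrophages grown from C57BL/6 bone marrow in L929-conditioned medium and used on day 7 of differentiation. A first group received no treatment, another IFNg at 100 ng/ml for 4 h, and a further group, used for comparison, IFNg at 100 ng/ml with interleukin 4 (IL4) at 10 ng/ml for 4 h. All 3 were fixed with formaldehyde and precipitated with the same IRF1 antibody. The series holds no library from cells without IRF1 and none with a control antibody. Whether a given peak marks IRF1 itself was therefore not tested. Each group was 1 library, and how many mice it came from is not given in the sources used here. There is therefore no replicate check on any difference, and no p-value was computed. Intervals in parentheses are 95% exact binomial (Clopper-Pearson) intervals and cover counting error only.

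IRF1 is a transcription factor whose own gene is induced by IFNg through the receptor-bound JAK kinases. Its DNA-binding domain recognises repeats of the letters GAAA spaced by a pair of bases, as found in the interferon-stimulated response elements of antiviral and antigen presentation genes. In macrophages it takes part in classical activation, in which the cell raises its defences against intracellular microbes. A low level of IRF1 is present in many cells without interferon.

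Stretches of promoters under peak summits (the point of highest read pile-up in a peak) are given first. Each was picked because it holds the letters marked, so they do not show how common these letters are in a class. The stretches come from the RefSeq table of promoters on GRCm38, the build of the peak lists. Capitals mark GAAA, any 2 bases and GAAA again, here called the IRF pair, or the letters CGTACC, a word described further on. Where pairs overlap, as in Socs1 and Oas1c, each is in capitals. The first 5 lie under the highest-ranked peaks with the pair in the promoter under their summit that were listed with IFNg and not in untreated cells.
Erap1: gcccgggaccGAAAGTGAAAgtgaaggtgg
Ifit1: actgagactgGAAAGTGAAActgaagcctg
Rbck1: ccccggaagaGAAAGTGAAAgtggcagtcc
Ogfr: cgcggaaagGAAAGTGAAAgaggaggaag
Tmem140: gttaaaaaacGAAAGTGAAAtcagctgaga
The next 3 lie under peaks listed in both conditions whose pile-up with IFNg was more than 5 times that of untreated cells.
Socs1: gccgGAAAGAGAAACCGAAAgcgggggtgg
Gm12250: tctaggcataGAAACTGAAAgccaccgagg
Oas1c: ccggGAAATGGAAACTGAAAgtcccatttc
The last 4 lie under the highest-ranked untreated peaks with CGTACC in the promoter, all also listed with IFNg. Their pile-up with IFNg was 1.61, 1.93, 1.51 and 1.89 times that of untreated cells, in the order shown.
Taf15: cctccgcgacCGTACCattattgaga
Flcn: aggacctgtcCGTACCttccacttct
Oga: ggcggtgggaCGTACCattttggctc
Mrps27: tgcggccgctCGTACCtccgagagtg
The stretches of the plus strand are chr2:152332427-152332456 for Rbck1, chr6:34863073-34863102 for Tmem140, chr5:120812609-120812638 for Oas1c, chr19:45783680-45783705 for Oga and chr13:99344549-99344574 for Mrps27. Those of the minus strand are chr13:74639839-74639868 for Erap1, chr19:34640775-34640804 for Ifit1, chr2:180589428-180589456 for Ogfr and chr16:10785594-10785623 for Socs1. Also on the minus strand are chr11:58183742-58183771 for Gm12250, chr11:83472943-83472968 for Taf15 and chr11:59810251-59810276 for Flcn. The middle of the nearest IRF pair lay 5.5 to 9.5 bp from the summit in the first 5, and 4.5, 21.5 and 9.5 bp from it in the next 3. The middle of CGTACC lay 14.5, 228, 6.5 and 164 bp from the untreated summit in the last 4. The Taf15 promoter also holds an IRF pair, outside the stretch shown.

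Nearly all sites of untreated cells were also listed with IFNg, while most sites of IFNg-treated cells were not listed before. Peaks counted as shared when they overlapped by at least 1 bp. Of the 244 untreated peaks 231 were shared (94.7%, 91.1 to 97.1) and 13 were listed only in untreated cells. Of the 4189 IFNg peaks 232 were shared (5.54%, 4.86 to 6.27), the 2 counts differing because a peak can meet more than 1 peak of the other list, and 3957 were listed only with IFNg. The untreated library was the deeper, at 1.54 times the depth of the input against 0.446 times for IFNg, and so held 3.45 times as many reads. These depths were recovered from the peak columns. They allow the number of extended reads over each summit to be given and, after division by the relative depth, the pile-up at input depth. For IFNg 45.4% of the values lay on the steps that set its depth, so its depth is an estimate, and an error in it would multiply every IFNg pile-up by the same factor.

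The classes differed in width and height. Shared peaks had a median width of 349 bp in the untreated list and 400 bp in the IFNg list, IFNg-only peaks 209 bp and untreated-only peaks 138 bp. Shared summits held 16 to 162 reads in untreated cells (median 64) and 8 to 102 with IFNg (median 33). The IFNg-only summits held 5 to 92 reads (median 14), or 31.4 at input depth, against 74 for the shared ones in the same list. The pile-up of each of the 3957 IFNg-only peaks was above the lowest pile-up of the untreated list, 10.4 at input depth. Had the same reads per depth been present in untreated cells, 3957 of 3957 would have passed the lowest −log10 p of that list, 6.61. Both outcomes were all but given in advance. Scaling to input depth raises the reads and the background of the shallower IFNg library alike, and with them the −log10 p of peaks already listed. These counts are therefore no test of depth or threshold. How many reads the untreated library had at those sites is not given by a peak list.

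Sharing followed the strength of a peak in its own list. Of 10 classes of IFNg peaks by the authors' −log10 p, 24.1% of the strongest (20.1 to 28.5) and 10% of the next were shared, against 1.44% of the weakest. Even so, 72 of the 100 strongest IFNg peaks were IFNg-only. Of 4 classes of untreated peaks the shares were 100, 100, 98.4 and 80.3% from the strongest to the weakest.

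**Figure D1:**
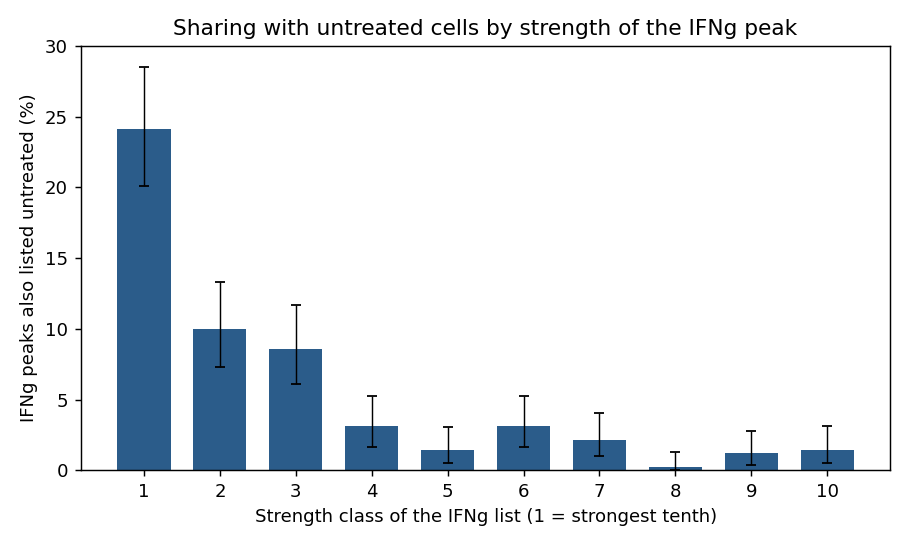
Share of IFNg peaks that overlap an untreated peak (vertical axis, %) in 10 classes of −log10 p within the IFNg list (horizontal axis, 1 is the strongest). Bars are shares and lines their 95% exact binomial intervals; the share is 24.1% in class 1, 10% in class 2 and at most 3.1% from class 4 on.

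The shared sites were promoters for the most part and the IFNg-only sites were not. Distances were taken from the summit to the nearest start in the RefSeq promoter table, which holds 21263 starts of 17492 of the 21887 protein-coding genes and was without chromosome 18, so that a distance can be too long. Of the shared peaks 168 of 224 lay within 1 kb of a start (75%, 68.8 to 80.5), with a median distance of 190 bp. Of the IFNg-only peaks it was 381 of 3862 (9.87%, 8.94 to 10.8), with a median of 29840 bp, and 50.6% lay 10 to 100 kb away. Of the untreated-only peaks it was 8 of 13. The intervals of shared and IFNg-only peaks do not overlap. The share of summits inside the span of a gene was alike, 55.8% (49.2 to 62.4) for shared and 57.2% (55.7 to 58.8) for IFNg-only peaks. The strongest 10% of the IFNg list had 16% of its IFNg-only peaks within 1 kb of a start, and the weakest 11.2%, so distal sites made up most of every strength class.

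**Figure D2:**
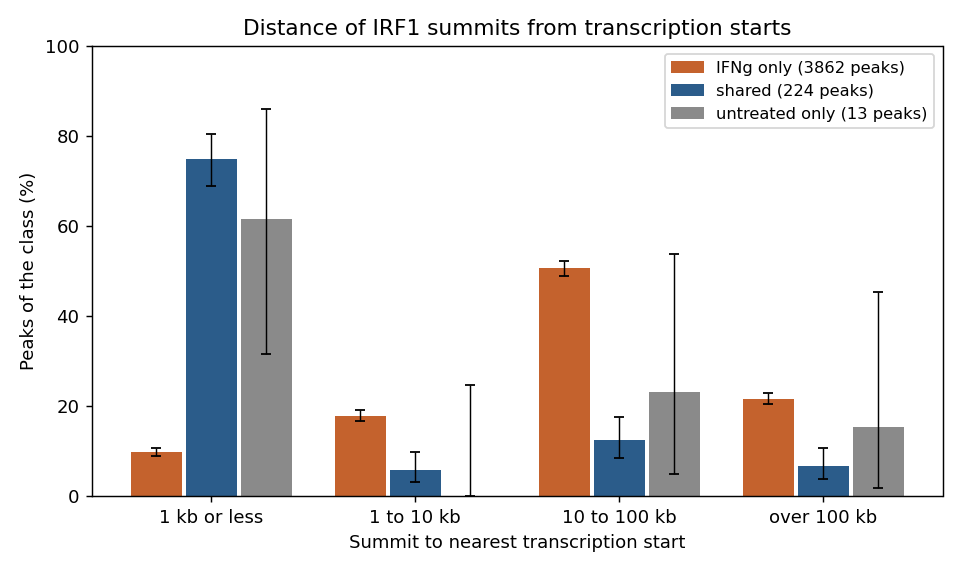
Peaks by distance from the summit to the nearest transcription start (horizontal axis, 4 distance classes) as a share of their class (vertical axis, %), with 95% exact binomial intervals. Shared peaks (224, untreated list) stand at 75% in the class of 1 kb or less, where IFNg-only peaks (3862) stand at 9.87%; the intervals are widest for the 13 untreated-only peaks.

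At 12 of the 231 shared sites the pile-up was far higher with IFNg, and at most of the others the difference was small by comparison. The ratio of IFNg to untreated pile-up at input depth had a median of 1.75 over the 231 sites (range 0.634 to 10.5). No site had a ratio between 3.19 (Aff1) and 5.66 (Vrk2), and a divide at 5, set in this gap after the values were seen, leaves 12 sites above and 219 below. At the 12 sites the ratio was 5.66 to 10.5 (median 7.22), and at the 219 it was 0.634 to 3.19 (median 1.70). In raw reads each of the 12 had more with IFNg than untreated and each of the 219 fewer, which follows from the divide, since the depths differ 3.45-fold and that value lies in the same gap. With IFNg+IL4 the ratio to untreated was 4.04 to 10.6 at the 12 sites and 0.861 to 2.88 at the 219. Both ratios share the 1 untreated library, so the second is no independent check of the first. The interval of the IFNg ratio lay above 1 at 130 of the 219 sites and below 1 at 0 of them. These intervals take the depths as exact. An error in the IFNg depth would move all 219 ratios together, so the 130 are not separate evidence of a rise. All 12 ranked between 186 and 242 of 244 in the untreated list and between 10 and 404 of 4189 in the IFNg list. A choice by ratio favours a low untreated and a high IFNg pile-up, so these ranks follow in part from the divide.

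**Figure D3:**
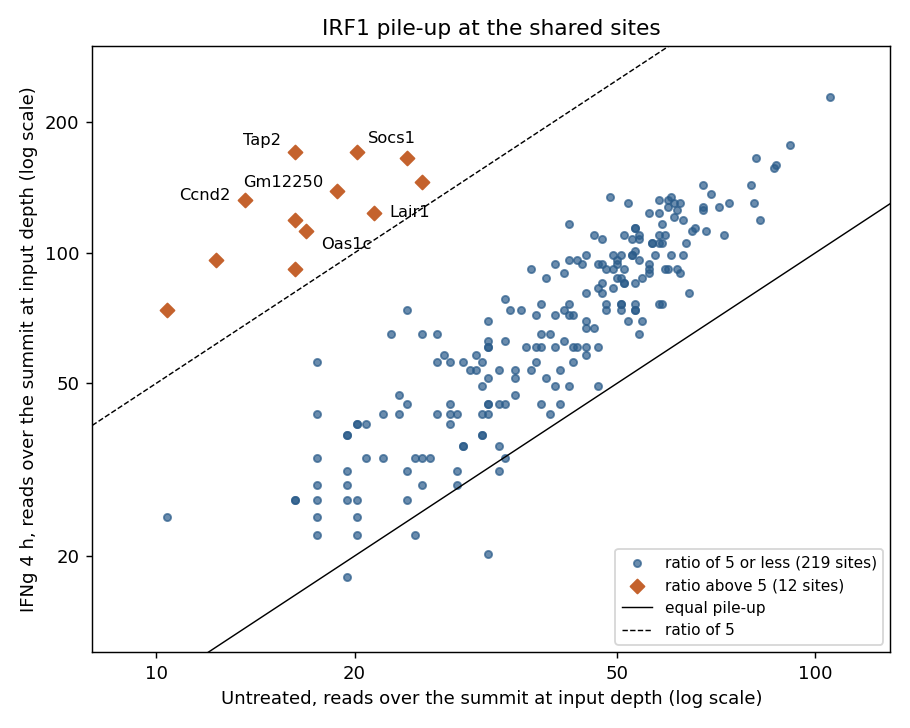
Reads over the summit at input depth in untreated cells (horizontal axis, log scale) and after 4 h of IFNg (vertical axis, log scale) at the 231 shared sites, 1 library each. The solid line is an equal pile-up and the dashed line a ratio of 5. The 12 sites above the dashed line (diamonds, 6 of them labelled) stand at 10.4 to 25.3 in untreated cells and at 74 to 170 with IFNg. Their choice by ratio favours low untreated values.

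Of the 12 sites 3 were nearest to a gene of the role lists, Tap2, Socs1 and Gm12250. The role lists hold 205 of 21887 protein-coding genes and were chosen with earlier results of these data known. The highest ratio, 10.5 (6.6 to 17.2), was at the edge of the span of Tap2, a chain of the peptide transporter that loads MHC class I (chromosome 17, 34204454 to 34204557). It held 25 reads in untreated cells, 76 with IFNg and 126 with IFNg+IL4, which are 16.2, 170 and 136 at input depth. The site lay within 20 kb of Tap1, the other chain, and of Psmb8 and Psmb9, subunits of the immunoproteasome, so these 4 genes share 1 untreated peak. At Socs1, which encodes an inhibitor of JAK kinases, the site lay 68 bp from the start (chromosome 16, 10785574 to 10785683) and held 31, 76 and 138 reads in the same order. Its ratio was 8.46 (5.5 to 13.3), from 20.1 to 170 at input depth with IFNg. At Gm12250, an immunity-related GTPase, the site 65 bp from the gene held 29, 62 and 125 reads and had a ratio of 7.38 (4.67 to 11.9). At Oas1c, of the oligoadenylate synthetase family that senses double-stranded RNA, the site 119 bp from the start held 26, 50 and 86 reads and had a ratio of 6.64 (4.05 to 11.1). In each of these 4 sites untreated cells had the lowest pile-up. Against IFNg this follows from the choice by ratio, and IFNg+IL4 was set against the same untreated reads, so it is no separate result.

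The other 8 sites were mostly away from starts. The site nearest to Ccnd2, the gene of cyclin D2, lay 93.8 kb from it and held 21 reads untreated and 59 with IFNg, a ratio of 9.69 (5.8 to 16.8). Lbr, a receptor for lamin B in the nuclear envelope, had a site 10.3 kb away with a ratio of 7.81, and Lair1, an inhibitory receptor for collagen on leukocytes, a site 9.44 kb away with a ratio of 5.75. Sites inside Pik3ap1, an adapter of phosphoinositide 3-kinase, Rab5c, a GTPase of early endosomes, and Syt2, a synaptotagmin, had ratios of 7.31, 6.9 and 5.75. The site inside Wnt5b lay 232 bp from the start of Fbxl14 and had a ratio of 7.12, and the site 10.4 kb from the kinase gene Vrk2 had 5.66. Of the 12 sites 4 lay within 1 kb of a start, against 164 of 212 (77.4%) of the sites below the divide.

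The Socs1 promoter shows how close the letters and the summit can lie. The 250 bases before its start on the minus strand, chr16:10785537-10785786, hold 2 overlapping IRF pairs, in capitals, and the untreated and IFNg summits were 9 bp apart.
Socs1 promoter: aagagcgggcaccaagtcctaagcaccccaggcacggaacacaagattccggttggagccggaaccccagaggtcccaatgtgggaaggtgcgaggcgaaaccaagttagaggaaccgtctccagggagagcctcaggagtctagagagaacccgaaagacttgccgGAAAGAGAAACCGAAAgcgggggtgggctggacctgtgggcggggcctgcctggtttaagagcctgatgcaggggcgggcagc
No other promoter is shown whole.

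The strongest sites of untreated cells were shared ones at Rnf44, Mia2, Taf15, Mical3 and Flcn, none of them in the role lists. Rnf44, a RING finger gene, had the strongest peak in both lists (chromosome 13, 54693737 to 54694557), with 162 reads in untreated cells, 102 with IFNg and 174 with IFNg+IL4. At input depth these were 105, 229 and 187, a ratio of 2.17 (1.68 to 2.8) for IFNg. At Taf15, which encodes an RNA-binding, TBP-associated factor, the summit 138 bp from the start held 124, 58 and 123 reads and had a ratio of 1.61 (1.16 to 2.22). At Flcn, the folliculin gene of nutrient signalling, it was 141, 79 and 133 reads and 1.93 (1.45 to 2.56). At Oga, which removes O-linked N-acetylglucosamine from proteins, it was 112, 49 and 110 reads and 1.51 (1.06 to 2.13). At Eed, a subunit of the Polycomb repressive complex that methylates histone H3, it was 99, 36 and 77 reads and 1.25 (0.832 to 1.85). At these 5 sites the raw reads were lowest in the IFNg library, the shallowest of the 3, and the pile-up at input depth differed far less than at Tap2 or Socs1.

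The remaining 10 of the 15 strongest shared sites were at Mia2, Mical3, Pip5k1c, Slc35e2, Fam53c, Gipc1, Git2, Mrps27, Lrrc75a and Them6, with ratios from 1.64 to 2.04. The first 15 starts covered by a shared peak were those of Rnf44, Mia2, Taf15, Flcn, Oga, Pip5k1c, Ankrd13a, Mrps27, Ptcd2, Eed, Hdac2, Galnt10, Atg101, Cenpn and Cmc2. Hdac2 encodes a histone deacetylase, Atg101 a factor of autophagy, Cenpn a centromere protein and Mrps27 a protein of the mitochondrial ribosome. Starts of 139 genes lay under an untreated peak (0.795% of 17492), and of 272 under an IFNg peak (1.55%).

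The 13 untreated-only peaks were weak, with 20 to 43 reads over the summit (median 26), and ranked 153 to 241 of 244. The strongest, inside Pcgf1, a Polycomb group gene, held 42 reads (chromosome 6, 83078465 to 83078847), lay 49.6 kb from the nearest IFNg peak and was the only one of the 13 without an IFNg+IL4 peak. Fuz, a gene of ciliogenesis, had 2 of these peaks with 43 and 40 reads. The peak at Meis1, a homeobox gene, held 38 reads and lay 1.3 kb from an IFNg peak. Others were nearest to Syne1, Tcp11, Zdhhc14, Atg16l2, Eif4a1, Peli2, Bhlhe41 and Akna, with 20 to 29 reads. At an unchanged pile-up the shallower IFNg library would hold 5.8 to 12.5 reads at these 13 sites, where the weakest listed IFNg-only peak held 5. Whether these sites were lower with IFNg cannot be told from the lists, and 12 of 13 (92.3%, 64 to 99.8) were listed with IFNg+IL4. Just outside this class, the weakest shared sites by ratio were at Zfp27 (49 reads untreated, 9 with IFNg, ratio 0.634, 0.274 to 1.3) and Fam20b (38 and 10 reads, ratio 0.908, 0.403 to 1.86), whose intervals include 1.

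Of the 15 strongest IFNg-only peaks some lay at a start and others far from any gene. The highest pile-up of the class was at the start of Erap1, the aminopeptidase that trims peptides for MHC class I (chromosome 13, 74639594 to 74640209), with 92 reads or 206 at input depth. A peak shared by the starts of Ifit1, an antiviral protein that binds foreign RNA, and Ifit1bl2 held 75 reads (chromosome 19, 34640489 to 34641027), as did the peak at Rbck1, a subunit of the linear ubiquitin ligase (chromosome 2, 152332151 to 152332720). Peaks inside the genes Msi2, an RNA-binding protein, Rasgrf1, an exchange factor for Ras, Clic5, a chloride channel protein, Osbpl8, a lipid transfer protein, Kmt2c, a histone methyltransferase, and Herc1, a ubiquitin ligase, held 68 to 86 reads. The others of the 15 strongest lay 3.78 kb from Trim30c, 32.6 kb from Hes1, 94.1 kb from Ralgapa2, 117 kb from Vrk2, 251 kb from Jun and 432 kb from Jarid2, with 63 to 83 reads. None of the 15 overlapped an untreated peak, by definition of the class, and all of the 400 strongest were listed with IFNg+IL4.

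Of the 15 starts under the strongest IFNg-only peaks 7 belonged to genes of the role lists: Erap1, Ifit1, Psmb8, Ifi35, Cmpk2, Xaf1 and Dtx3l. These lists hold 205 of 21887 protein-coding genes and were chosen with earlier results of these data known, so the count is a description. Besides Erap1, Ifit1, Ifit1bl2 and Rbck1 the starts were those of Nmi (77 reads), Psmb8 (72), Parp12 (60), Ifi35 (63), Cmpk2 (60), Ogfr (53), Mov10 (56), Tmem140 (58), Ctso (73), Xaf1 (49) and Dtx3l (52). Nmi and Ifi35 encode partner proteins, Parp12 an ADP-ribosyltransferase with antiviral activity, Cmpk2 a mitochondrial nucleotide kinase, Mov10 an RNA helicase and Ctso a lysosomal cathepsin. The genes with most IFNg peaks within 20 kb were Lrch1 with 7 and Irf2, Ncoa3, Tmcc3 and Zbtb20 with 6 each. Gbp2b, Oxr1, Psmb8, Psmb9 and Rapgef2 had 5 each. Of these 10, Oxr1 had 2 untreated peaks, Psmb8 and Psmb9 shared 1, and the other 7 had none. Psmb8 and Psmb9 span 3.26 and 5.3 kb, whereas Zbtb20 spans 759 kb and Oxr1 414 kb, so the counts rest on windows of unlike length.

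The promoter letters differed between the classes. A window of 300 bases was used, 250 before and 50 after each start, searched on both strands. Of all 21263 windows 3.35% held the IRF pair. Of the 146 windows under an IFNg-only summit 76 held it (52.1%, 43.6 to 60.4). Of the 139 windows under a shared summit with a ratio of 5 or less 5 held it (3.6%, 1.18 to 8.19), a share near that of all windows. Of the 4 windows under the shared summits above the divide 3 held it, those of Socs1, Gm12250 and Oas1c, and of the 6 under untreated-only summits 0 did. Counted per peak, since windows of neighbouring starts overlap, it was 74 of 139 IFNg-only and 4 of 117 low-ratio shared peaks. In IFNg-only windows the pair lay a median of 14.5 bp from the summit, and within 50 bp in 55 of 74 peaks. It was in 47 of 69 stronger promoter peaks (68.1%) and in 27 of 70 weaker ones (38.6%), split at the median rank. Whether the low-ratio shared peaks, with the pair at a share near that of all windows, mark IRF1 itself was not tested.

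Of the other motifs, the IRF triple, which adds 2 bases and another GAAA to the pair and so contains it, was in 8.22% of IFNg-only windows (4.32 to 13.9) against 0.141% of all. The composite ETS-IRF letters, GGAA, any 2 bases and GAAA, which can share their GAAA with an IRF pair, were in 11.6% (6.93 to 18) against 2.53%. The NF-kappa B letters, GGGA, any 2 bases and TTCC, were in 4.11% (1.52 to 8.73) against 1.44%. This was 6 of 146 windows, with a lower bound just above the share of all windows. No allowance was made for the 8 motifs looked at. For the other 4 motifs the interval includes the share of all windows. These were the STAT letters TTCNNNGAA (GAS) at 12.3% (7.47 to 18.8) against 7.69%, only just included, and the AP-1 letters TGANTCA at 11% (6.4 to 17.2) against 6.99%. The C/EBP letters TTGCNNAA stood at 13% (8.02 to 19.6) against 10.2% and the E-box CACGTG at 5.48% (2.4 to 10.5) against 7.84%. In the low-ratio shared windows the intervals of all 8 motifs included the share of all windows.

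The word CGTACC was more frequent in the low-ratio shared promoters than in all promoters, although most of them lacked it, and their CpG content was high. The word CGTACC was found by comparing all 2080 words of 6 letters, both strands together, in these same windows, so its share is a description of them and was chosen after its value was seen. It was in 26 of 139 windows (18.7%, 12.6 to 26.2) against 2.81% of all, a ratio of 6.65. This was the highest of the 1475 words found in at least 10 of the 139 windows, the next being 5.27. By the difference in percentage points the word ranked 30 of the 2080. Followed by an A it was in 21 of 139 windows against 0.522% of all. In IFNg-only windows it was in 6 of 146 (4.11%, 1.52 to 8.73). The median ratio of observed to expected CpG was 0.842 in the low-ratio shared windows, 0.545 in IFNg-only windows and 0.567 in all windows. Among the 7742 windows with a CpG ratio of at least 0.724, the word was in 4.88%, and in 21 of the 104 low-ratio shared windows of that kind. It lay a median of 42.5 bp from the summit, and within 50 bp in 13 of 22 peaks. Peaks outside promoter windows, most of the IFNg-only class, were not searched.

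**Figure D4:**
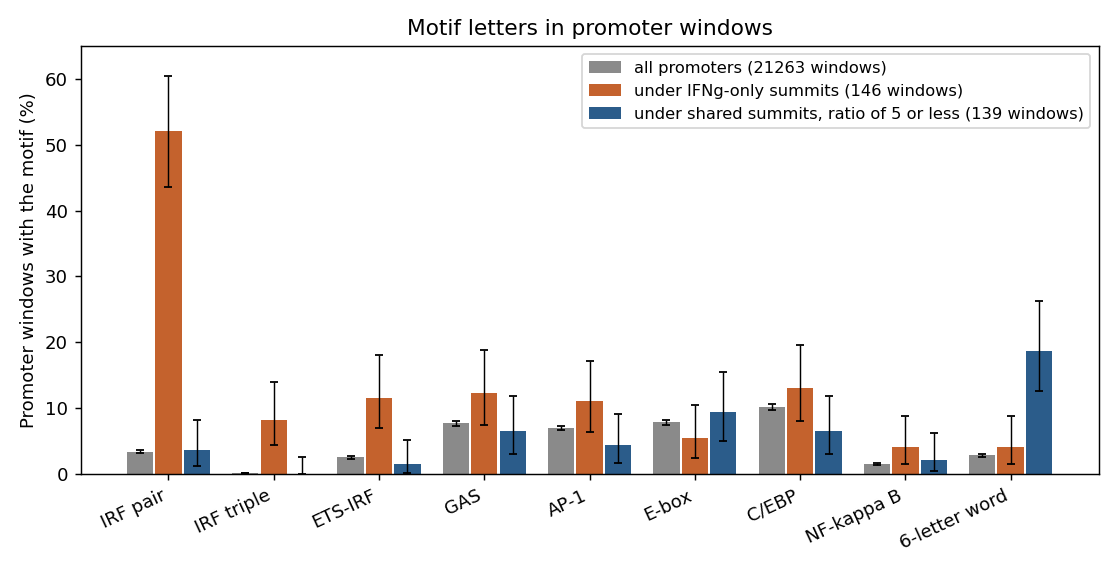
Promoter windows of 300 bases that hold each motif (vertical axis, %) among all promoters, those under IFNg-only summits and those under shared summits with a ratio of 5 or less, with 95% exact binomial intervals. The IRF pair stands at 52.1% under IFNg-only summits and near 3.5% in the others; the 6-letter word, which was picked on the shared windows, stands at 18.7% there.

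Near genes of the role lists peaks were common with IFNg and rare without, and with IFNg they were also common near macrophage identity genes. A gene counted as near a peak when a summit lay within 20 kb of its span. Of all 21887 protein-coding genes 2.47% were near an untreated peak, 18.0% near an IFNg peak, and 15.7% near an IFNg peak and no untreated one. Of the 205 genes of 13 role lists 8 were near an untreated peak (3.9%) and 126 near an IFNg peak (61.5%), 118 of them with no untreated one. The lists were chosen with earlier results of these data known, so these shares describe the lists and support nothing beyond them. Where a list had 0 genes near an untreated peak, this is near the 2.47% of all genes, since each list is short. The macrophage identity list stood at 52% near an IFNg peak, as high as several role lists. The median was 1 IFNg peak per list gene against 0 over all genes.

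Of 15 genes of IFNg signalling 9 were near an IFNg peak and 1, Socs1, near an untreated one. Stat2, which carries interferon signals to the nucleus, had its peak 0.223 kb from its span with 45 reads, and Stat3 had its strongest inside its span with 42. Usp18, a protease that removes ISG15 and damps the type I receptor, had 5 peaks, the strongest 0.08 kb from the gene with 53 reads. The receptor chains Ifngr1, Ifngr2, Ifnar1 and Ifnar2, the kinase Jak1 and the inhibitor Socs3 had none in either list. Of 12 genes of the IRF list 6 were near an IFNg peak and 0 near an untreated one. These were led by Batf2, a partner of IRF1 (52 reads, 7.01 kb away), Irf9, the DNA-binding subunit of the complex formed after type I interferon (47 reads, 13 kb away), Irf4 (32 reads), Irf2, a competitor of IRF1 (25 reads, 6 peaks), and Irf5 (29 reads). The peak counted for Irf9 lay 44 bp from the start of Psme2, a gene of the MHC class I list named here outside the rule. Of the IRF list, Irf3, Irf7, Irf8, Irf2bp1 and Irf2bp2 were among those with none. The Irf1 gene itself, named outside the rule and after its value was seen, had 1 peak of 12 reads 18.5 kb away.

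Of the 8 role-list genes near an untreated peak 4 were MHC class I genes at 1 site. Of 20 MHC class I genes 16 were near an IFNg peak and 4 near an untreated one, and these 4, Tap1, Tap2, Psmb8 and Psmb9, share the site described above. Each of the 4 had 5 IFNg peaks within 20 kb, counted from neighbouring windows. H2-K1, H2-D1, H2-Q7 and Calr had no peak. Class I genes share long stretches of sequence, so the absence of a listed peak is uncertain for H2-K1, H2-D1 and H2-Q7. Of 12 MHC class II genes 9 were near an IFNg peak, through 7 peaks in all, and 0 near an untreated one. The peak near H2-DMa and H2-Oa, which edit and restrain peptide loading, held 40 reads. Ciita, the activator of class II genes, had 22 reads inside its span, and the peak near H2-DMb1 and H2-DMb2 had 15. Named outside the rule, H2-Aa, H2-Ab1 and H2-Eb1 counted through 1 and the same peak of 8 reads, ranked 3649 of 4189. Ctss counted through a peak of 11 reads. Cd74, H2-Ob and Ifi30 had none.

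The large defence families differed in how many members were near a peak. Of 10 guanylate-binding proteins 8 were near an IFNg peak and 0 near an untreated one, with 48 reads at a peak by the starts of Gbp7 and near Gbp5, 36 inside Gbp3, and 32 at a peak between Gbp2 and Gbp2b. Of 11 immunity-related GTPases 7 were near an IFNg peak, and 2, Gm12250 and Igtp, share the untreated peak of Gm12250, which is 15.8 kb from Igtp. Irgm1 had 43 reads 14 bp from its start, Ifi47 35 inside its span and Irgm2 13. Of 31 antiviral effectors and sensors 26 were near an IFNg peak and 0 near an untreated one, the highest share of the lists. Ifit1 had 75 reads, Ifi35 63, Cmpk2 and its neighbour Rsad2, the gene of viperin, share 60, and Parp9 and Dtx3l share 52. Of 11 Pyhin genes, sensors of DNA, 1, Aim2, was near an IFNg peak, with 22 reads, a share of 9.09% beside 18.0% of all genes. A list of 11 genes is too short to tell this share from the background. Nor can a count of 0 near an untreated peak in lists of this length be told from the 2.47% of all genes.

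Of 16 genes of the Trim and nuclear body list 8 were near an IFNg peak, with 77 reads near Trim30a and Trim30c, 41 at Trim26, 41 at Trim21 and 27 at Trim56. Of 22 cytokines and chemokines 12 were, with 59 reads at Il27, 36 at Tnfsf10, the ligand TRAIL, 46 at Il18bp, the decoy of interleukin 18, 39 at Il15 and 23 near Ccl5. Of 16 surface and checkpoint genes 9 were, with 42 reads at Slamf8, 40 at the costimulator Cd86, 36 at Cd274, 22 at Cd47 and 20 near Ly6e. Of 16 cell death and inflammasome genes 12 were, with 49 reads at Xaf1, 42 at Bak1, 29 at Mlkl, the effector of necroptosis, and 16 at Cflar. Of all genes 18.0% were near an IFNg peak and 2.47% near an untreated one. None of these 4 lists had a gene near an untreated peak, which for lists of this length is near the share of all genes.

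Of 13 metabolic effectors 3 were near an IFNg peak, 23.1% and so near the background. Wars, the tryptophan tRNA synthetase, had 47 reads and Acod1, which makes itaconate, 31. Sod2, the mitochondrial superoxide dismutase, had a shared peak 14 bp from its start with 94 reads in untreated cells, 54 with IFNg and 85 with IFNg+IL4, a ratio of 1.98 (1.39 to 2.8). It was the only role-list site with an untreated peak that lay below the divide, and those of Tap2, Socs1 and Gm12250 lay above it.

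A peak list holds no expression values, so the labelled cell type could not be checked against marker levels. IFNg peaks lay near 13 of 25 macrophage identity genes, each with 1 peak at most, the strongest with 70 reads near Cebpb, the gene of the factor CEBPB. They lay near 2 of 25 markers of other blood and stromal cells, 3 of 25 genes of other organs and 3 of 25 genes of growth and ribosome production. Untreated peaks lay near 1, 0, 2 and 2 genes of these 4 lists in the same order. The macrophage gene near an untreated peak was Cd68, through the untreated-only peak at Eif4a1. It was among the genes near an untreated and no IFNg peak, 0.0959% of all genes, and no role-list gene was.

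**Figure D5:**
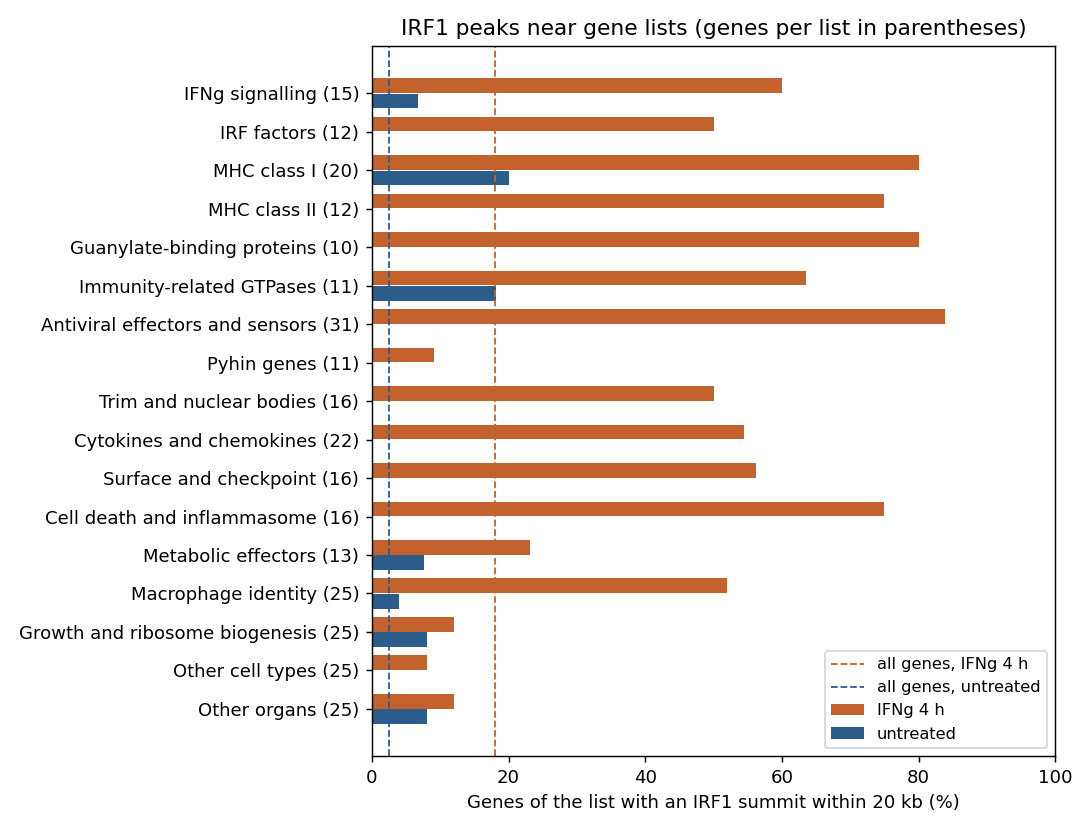
Share of the genes of each list with an IRF1 summit within 20 kb (horizontal axis, %) for IFNg and untreated cells, with the number of genes measured beside each name. Dashed lines mark the shares over all protein-coding genes, 18.0% and 2.47%; the antiviral list stands at 83.9% with IFNg and at 0% untreated, the Pyhin list at 9.09%.

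The overlap with the other factors of the series also differed between the classes. With IFNg+IL4, 94.9% of the IFNg-only IRF1 peaks and 231 of 231 shared ones were listed again. JUNB, a subunit of AP-1, overlapped 24.7% of IFNg-only peaks in its IFNg list of 7428 peaks (23.4 to 26.1), 5 of the 12 shared sites above the divide and 5 of the 219 below it (2.28%, 0.745 to 5.25). CEBPB with IFNg, with 21499 peaks, overlapped 27.7% of IFNg-only (26.3 to 29.1) and 10.5% of the 219 sites (6.77 to 15.3). In untreated cells these factors met few of the sites. JUNB, with 5355 peaks at a −log10 q of at least 2, overlapped 5.13% of IFNg-only peaks and 3.2% of the 219, and CEBPB, with 5540 peaks, 3.11% and 1.83%. Within 1 kb of a start JUNB with IFNg overlapped 15.5% of IFNg-only and 2.98% of shared peaks, so the difference in this list was present among promoters alone.

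STAT6, the factor of the IL4 receptor, and MYC, a regulator of growth, were mapped with IL4 and not with IFNg alone. STAT6 with IL4 overlapped 21.4% of IFNg-only peaks (20.1 to 22.7), 42% of the 219 low-ratio sites (35.4 to 48.8) and 9 of the 12 above the divide. After 2 h of IFNg+IL4 it overlapped 35.5%, 39.3% and 11 of 12. MYC after 2 h of IL4, with 13211 peaks, overlapped 7.94% of IFNg-only peaks (7.11 to 8.82), 56.6% of the 219 (49.8 to 63.3) and 3 of the 12. Among peaks within 1 kb of a start this was 33.6% of IFNg-only (28.9 to 38.6) and 56% of shared ones (48.1 to 63.6). MYC in untreated cells, with 495 peaks, overlapped 3 of the 219 and 8 of the 3957. The lists compared here differ in length and depth.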

How the data were processed

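The 17 deposited narrowPeak lists hold 1 ChIP-seq library each from bone marrow-derived macrophages (16 ChIP, 1 input), and the 3 IRF1 lists, the input list and, for overlaps, the others were used. Per the submitters' processing notes the tools were Bowtie2 2.2.6 for alignment and MACS2 2.1.0.20150731 for peaks, on mm10/GRCm38, with settings not given in the sources used here. Per peak the authors deposited a fold enrichment (a ratio to control), −log10 p and −log10 q values, a score derived from the latter and the summit offset, another deposited column. These rank peaks within a list only.

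A peak's pile-up and background were solved from its fold and −log10 p, since the caller adds 1 to each before division. Their smallest steps give the depth relative to the input, assuming the same input for every list. Pile-up was recovered as a whole number of reads for 100% of peaks, within 0.0001 (IFNg, IFNg+IL4) or 0.02 (untreated, whose values had been scaled). The recovery was tested on simulated data. Ratio intervals condition on the sum of reads and scale by depth, which is taken as exact.

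Genes came from RefSeq tables of GRCm38.p6. Of 309 list genes 231 had a promoter window, and Gbp11, Mx1, Mx2 and Pyhin1 were not protein-coding entries. Members and lists were chosen with earlier results of these data known. Named were the nearest genes of the 15 strongest IFNg-only and shared peaks and of all untreated-only peaks, the 10 genes with most IFNg peaks, up to 5 genes per role list (those with an untreated peak first, then by −log10 p), signalling, IRF and MHC genes without a peak, and 15 starts per class. Some genes that this rule names are not reported here. The 12 sites above the divide were named after their values were seen. Analyses used Python 3.11.15, numpy 2.4.6, pandas 2.3.3, scipy 1.17.1 and matplotlib 3.10.9. Alternatives covered the overlap rule, the q threshold, the window and the start distance.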

Additional observations from a re-analysis of the deposited data

How the results depend on the processing

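Of 50 values under alternatives, 33 stayed within 1.5 times of a count or within the interval of a share (for the ratio, its quartiles), and 17 moved. With a reciprocal overlap of 50% the share of untreated peaks shared with IFNg was 86.1% and 34 were untreated-only; 66.5% of IFNg-only and 90.5% of shared IFNg peaks then overlapped the IFNg+IL4 list. Against as many of the strongest IFNg peaks it was 27% in either direction. With a −log10 q of at least 10 in both lists 7.72% of IFNg peaks were shared and 2260 were IFNg-only. With a −log10 q of at least 5 96.3% of IFNg-only peaks overlapped IFNg+IL4. With a window of 5 kb 338 genes were near an untreated and 2631 near an IFNg peak, with 5 role-list genes near an untreated one; with 50 kb it was 903, 6307 and 18. At 5 kb 2.44% of role-list genes against 1.54% of all genes were near an untreated peak, and at 50 kb 8.78% against 4.13%. Within 2.5 kb of a start lay 14.4% of IFNg-only peaks, and within 1 kb of either end of a gene's span 11.3%, an alternative chosen after seeing the data. Also chosen after seeing the data, the number of shared sites with a ratio above 5 was 12 with background subtracted, 10 of 148 sites with summits at most 50 bp apart, and 9 with IFNg+IL4 in place of IFNg. No paired analysis was possible because each group was 1 library, and for the same reason no library could be left out. No alternative depth was run, and the shallower IFNg library limits what can be said of the untreated-only peaks.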
